A study of Homo sapiens with 4 samples.

Results

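Integrins and laminins were examined in human liver cancer cells carrying a short hairpin RNA against WDR4. The genes were taken by symbol, as the alpha subunits of integrins (ITGA), their beta subunits (ITGB) and the alpha, beta and gamma chains of laminins (LAMA, LAMB, LAMC). This rule found 38 of the 19225 entries of the deposited table, namely 18 integrin alpha subunits, 8 integrin beta subunits, 5 laminin alpha chains, 4 laminin beta chains and 3 laminin gamma chains. The rule uses symbols and no measured value. WDR4 is the partner of the methyltransferase METTL1, and together they place 7-methylguanosine on RNA. RNA was sequenced from HCC-LM3 and Huh-7 cells, both established lines from hepatocellular carcinoma, each with the hairpin sh-WDR4-2 or the control hairpin sh-NC, at 48 h. Per the study's methods the hairpins came from lentivirus and the infected cells were selected with puromycin, for controls and sh-WDR4-2 alike. Each of the 4 groups was 1 library, so a difference between hairpins within a cell line has no replicate, and the 2 cell lines are the only repeats of the hairpin. The treatment labels differ from these group names in both sh-WDR4-2 libraries, in HCC-LM3 naming WDR4 with no hairpin and in Huh-7 naming transfection of siWDR4, a transient agent, the extraction text of the Huh-7 libraries names another tissue, and in HCC-LM3 cells the library labelled sh-WDR4-2 has another lane number than the rest, which cannot be told apart from the hairpin.

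Integrins are receptors made of 1 alpha and 1 beta subunit. The alpha subunit largely sets the ligand, and the beta tail binds talin and kindlin, which tie the receptor to actin. Laminins are cross-shaped trimers of 1 alpha, 1 beta and 1 gamma chain that form the sheet of basement membranes and are bound by integrins alpha3 beta1, alpha6 beta1, alpha6 beta4 and alpha7 beta1. Healthy liver holds little laminin around its hepatocytes, and laminin is known to build up in scarred liver.

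The libraries held between 29807047 and 40572251 counts. The targeted gene WDR4 gave 1009 counts with sh-WDR4-2 against 1604 with sh-NC in HCC-LM3 cells, and 990 against 1077 in Huh-7 cells. On the log2 scale, with 0.5 added to the counts scaled to library size (CPM), these pairs were at −0.22 and −0.02, so the target was little lower in the first pair and not detectably lower in the second. METTL1 was at −0.29 and −0.28. Of 6 hepatocyte markers, ALB and TTR had 0 counts in all 4 libraries, AFP had at most 6 and SERPINA1 at most 7, and HNF4A, a liver transcription factor, had 1980 and 2033 counts in Huh-7 but 4 and 8 in HCC-LM3 cells. APOA1 had 3334 counts or more in each library, but its symbol breaks the row order of the deposited table, so that the entry may belong to another gene. The genes ALB, TTR and AFP, which define hepatocytes or liver tumour cells, were thus at or near 0 in both lines, and for Huh-7, a line known for AFP, this goes against the label. VTN, another gene of secreted liver protein, had 727 to 1506 counts. The fibrinogen genes FGA, FGB and FGG, also of secreted liver protein, went the other way, with at most 10 counts in any library. The epithelial keratin genes KRT8 and KRT18 had at least 10513 and 9751 counts in each library, while EPCAM had 0 and 2 in HCC-LM3 and 237 and 216 in Huh-7, and CDH1 at most 86. Of the leukocyte markers, PTPRC and CD3E had 0 counts in all libraries and CD14 had at most 14. No integrin or laminin symbol broke that order.

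Of the 38 genes, 26 reached a mean of 1 CPM in HCC-LM3 cells and 24 in Huh-7 cells. Among them, 21 reached it in both lines, 5 only in HCC-LM3 (ITGA4, ITGB2, ITGB7, LAMA2 and LAMA4) and 3 only in Huh-7, among them ITGAD and ITGB3. The other 9 stayed under it in both, with at most 38 counts in any library. They were ITGA8, ITGA9, ITGA10, ITGA11, ITGAL, ITGAM, ITGAX, ITGB6 and LAMB4. ITGAL, ITGAM and ITGAX, the alpha subunits of the leukocyte integrins, had at most 6 counts in a library. Levels of different genes are compared below in FPKM, which scales fragments to gene length and library size, and differences between libraries as log2 fold changes of TMM-normalized CPM.

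The integrin beta subunits were led by ITGB1, the partner of most alpha subunits. With sh-WDR4-2 and sh-NC its level was 241 and 237 FPKM in HCC-LM3 cells and 165 and 159 FPKM in Huh-7 cells, and pairs of values below keep this order. In bulk RNA, fewer cells that express a gene and less RNA of it per cell cannot be told apart. ITGB1 made up 76.2% and 75.2% of the summed FPKM of all beta subunits in HCC-LM3 and 66.5% and 65.2% in Huh-7. ITGB5, which pairs with alpha V to bind vitronectin, came next, at 65.6 and 70.0 FPKM in HCC-LM3 and 51.3 and 50.6 in Huh-7. Both subunits were above every other beta subunit in all 4 libraries. ITGB4, the long-tailed partner of alpha6 in hemidesmosomes, was at 2.63 and 1.89 FPKM in HCC-LM3 but 28.4 and 30.1 in Huh-7. ITGB8, the partner of alpha V that activates latent TGF-beta, was at 5.41 and 5.37 against 2.89 and 3.35 FPKM. ITGB2, ITGB3 and ITGB7 were all under 1 FPKM in each library.

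Among the alpha subunits, ITGA3, a laminin receptor, was highest in HCC-LM3 cells, at 56.8 and 65.2 FPKM against 42.8 and 45.5 in Huh-7. ITGA5, the fibronectin receptor subunit, was highest in Huh-7 cells, at 58.0 and 59.6 FPKM, and was at 23.1 and 13.7 in HCC-LM3. The first 3 places were therefore ITGA3, ITGA1 and ITGAV in HCC-LM3 but ITGA5, ITGA3 and ITGA6 in Huh-7 cells. ITGA1, a collagen receptor subunit, was at 40.9 and 40.7 FPKM in HCC-LM3 and 12.7 and 12.8 in Huh-7. ITGAV, the subunit of receptors for vitronectin and other RGD ligands, was at 29.2 and 29.1 against 12.5 and 13.4. ITGA6, another laminin receptor, went the other way, at 10.02 and 10.7 FPKM in HCC-LM3 and 32.3 and 33.1 in Huh-7, as did ITGA2, the second collagen receptor subunit, at 2.62 and 2.30 against 11.2 and 12.5. The collagen receptor alpha subunits thus stood in different proportions, since ITGA1 over ITGA2 was 15.6 and 17.7 in HCC-LM3 and 1.13 and 1.02 in Huh-7. ITGA7, known from muscle as a laminin receptor, was at 1.32 and 1.35 against 0.461 and 0.353 FPKM. The PELO gene lies within ITGA1 on the same strand and shares exon sequence with it. PELO had 1679 and 2298 counts in HCC-LM3, where ITGA1 had 5840 and 7921. In Huh-7 PELO had 1497 and 1663, where ITGA1 had 2222 and 2405. The part of PELO reads in the ITGA1 values, and so in the ratio to ITGA2 and the difference between lines, was not tested. The summed FPKM of all alpha subunits was close in the 4 libraries, at 170.5 and 170.4 in HCC-LM3 and 175.0 and 183.0 in Huh-7. This closeness holds for FPKM, which scales by library totals alone. The TMM factors that multiply those totals were 1.06 and 1.06 in HCC-LM3 and 0.942 and 0.944 in Huh-7. Applying them would set the Huh-7 sums further above those of HCC-LM3. The FPKM of ITGB1 over that of the alpha subunits it is known to pair with was 1.46 and 1.45 in HCC-LM3 and 0.973 and 0.895 in Huh-7.

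**Figure D1:**
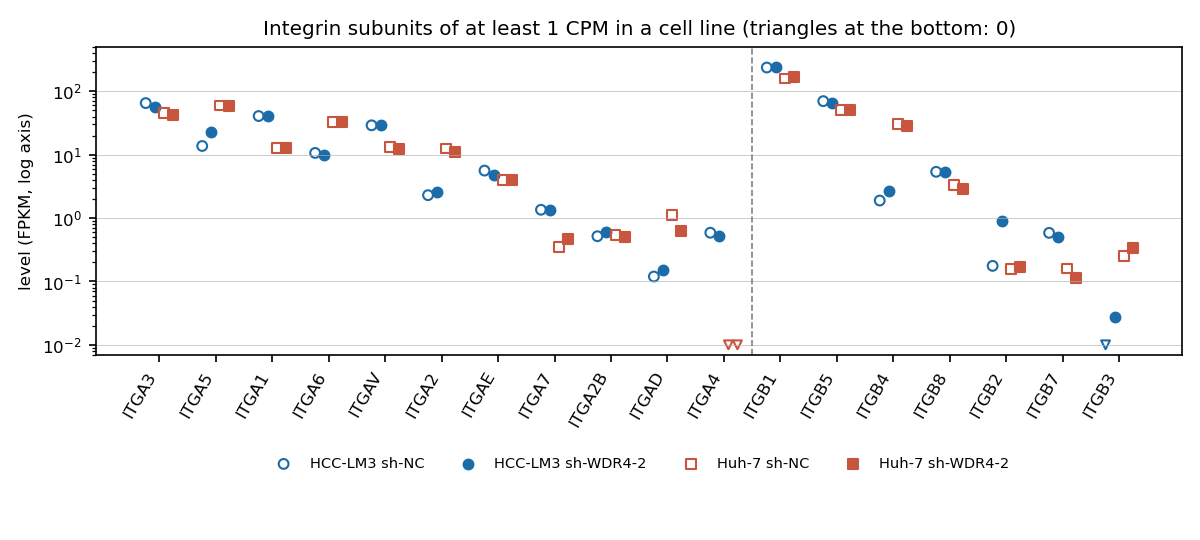
Level of each of the 18 integrin subunits that reached 1 CPM in a cell line, in FPKM on a log axis, with 1 point per library (circles HCC-LM3, squares Huh-7, open sh-NC, filled sh-WDR4-2) and alpha subunits left of the dashed line. ITGB1 is highest throughout, at 159 to 241 FPKM, and ITGA6, ITGA2 and ITGB4 are higher in Huh-7 while ITGA1 and ITGAV are higher in HCC-LM3.

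The laminin alpha chains were led by LAMA5, a chain of most adult basement membranes, at 57.3 and 60.4 FPKM in HCC-LM3 and 91.6 and 93.7 in Huh-7. LAMA1, the chain of embryonic basement membranes, was at 15.9 and 19.6 against 23.4 and 22.5 FPKM. LAMA3, the chain of skin and other epithelial laminin, was at 3.03 and 3.16 against 4.49 and 5.36. The shares of these chains were alike in both lines, with LAMA5 at 72.0% to 77.1% of the alpha chain FPKM. LAMA4, a chain known from vessels, was at 0.581 and 0.667 FPKM in HCC-LM3 and at most 0.0404 in Huh-7, and LAMA2, the muscle chain, was at 0.184 and 0.125 in HCC-LM3 with at most 2 counts in a Huh-7 library.

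The laminin beta and gamma chains differed most in make-up. LAMB2, the beta chain of kidney and synaptic basement membranes (chr3:49121114-49133118), was at 81.0 and 85.4 FPKM in HCC-LM3 and at 3.50 and 3.43 in Huh-7. LAMB1, the most widely used beta chain (chr7:107923799-108003255), was at 21.4 and 20.9 in HCC-LM3 and at 59.7 and 61.0 in Huh-7. LAMB2 over LAMB1 was therefore 3.79 and 4.08 in HCC-LM3 and 0.0586 and 0.0563 in Huh-7. LAMB1 shares exon sequence with DLD on the opposite strand, which had 3830 to 5129 counts, as LAMA5 does with ADRM1, with up to 6305. The part of these genes in the LAMB1 and LAMA5 values was not tested. LAMB2 made up 57.4% and 57.6% of the beta chain FPKM in HCC-LM3 and 3.31% and 3.28% in Huh-7. LAMB3, the beta chain that joins LAMA3 in epithelial laminin, was close in both, at 38.7 and 41.9 against 42.6 and 40.4 FPKM. LAMC1, the common gamma chain, was at 49.9 and 49.1 FPKM in HCC-LM3 and 29.8 and 28.8 in Huh-7, and LAMC3, a less widely used gamma chain, was at 3.42 and 3.46 against 20.8 and 19.0. LAMC3 was thus 6.40% and 6.57% of the gamma chain FPKM in HCC-LM3 and 40.9% and 39.6% in Huh-7.

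**Figure D2:**
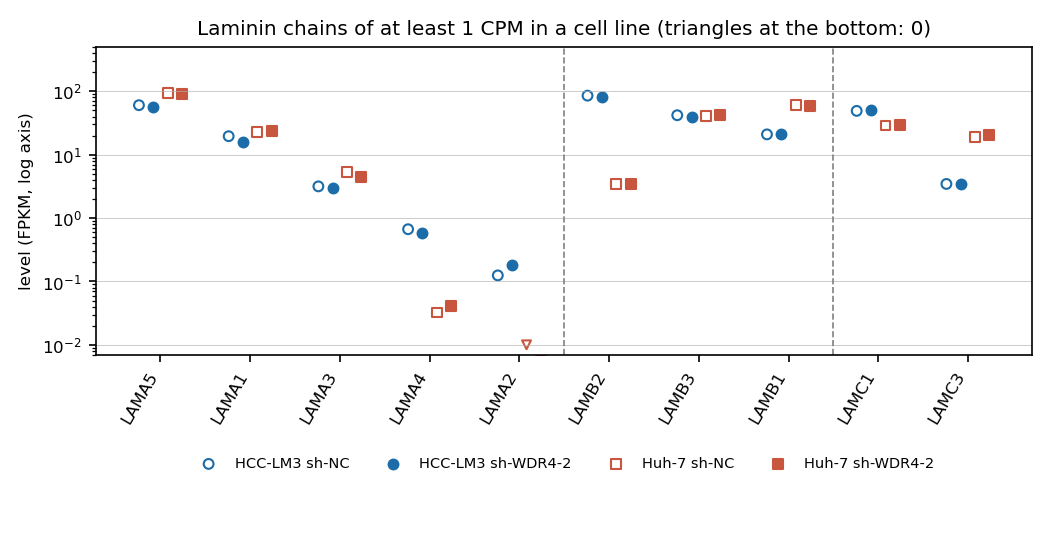
Level of 10 laminin chains that reached 1 CPM in a cell line, in FPKM on a log axis, with 1 point per library (circles HCC-LM3, squares Huh-7, open sh-NC, filled sh-WDR4-2) and dashed lines between alpha, beta and gamma chains. LAMB2 lies at 81.0 and 85.4 FPKM in HCC-LM3 and at 3.50 and 3.43 in Huh-7, and the points of the hairpins of 1 line lie close together.

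**Figure D3:**
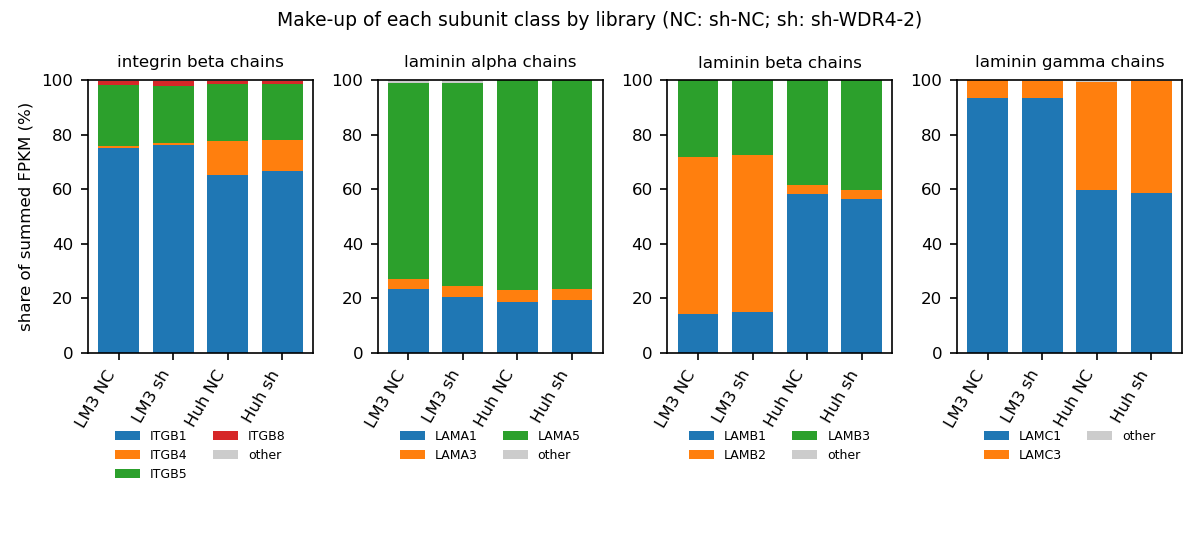
Share of each subunit in the summed FPKM of its class, in percent, for 4 classes and 4 libraries, where subunits under 1% in all libraries are joined as other. The laminin beta bars are mostly LAMB2 in HCC-LM3 and mostly LAMB1 and LAMB3 in Huh-7 cells, and the LAMC3 part of the gamma bars is larger in Huh-7.

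Known pairs were counted as expressed when every chain had a mean of 1 CPM, which says nothing of the protein or of assembly. Of 24 integrin pairs, 13 were expressed in HCC-LM3 and 12 in Huh-7, 10 of them in both. The 3 found only in HCC-LM3 were alpha4 beta1, alpha4 beta7 and alphaE beta7, and the 2 found only in Huh-7 were alphaV beta3 and alphaIIb beta3. All of these rested on a chain with a mean under 1 FPKM, namely ITGA4 at 0.555 or ITGB7 at 0.544 in HCC-LM3 and ITGB3 at 0.295 in Huh-7. The alphaL, alphaM, alphaX and alphaD pairs of ITGB2 were expressed in neither. Of 13 laminin trimers, 12 were expressed in HCC-LM3, 8 in Huh-7 and 7 in both. The lowest chain of the trimers of LAMA5 and LAMC1 was LAMB1 in HCC-LM3, at a mean of 21.1 FPKM, for the form with LAMB1, and LAMB2 in Huh-7, at 3.46, for the form with LAMB2. The 5 trimers found only in HCC-LM3 all held LAMA2 or LAMA4, whose means there were 0.154 and 0.624 FPKM.

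The difference between the cell lines was tested with edgeR over 12712 genes, with the hairpin as an additive term and p-values adjusted over all of these genes. The libraries of a line carried different hairpins and stood in for replicates, so the p-values cover these libraries and not other cultures. Of the 25 integrin and laminin genes tested, 22 passed an adjusted p of 0.05, 12 higher in HCC-LM3 and 10 higher in Huh-7. Of all genes, 77.4% passed, so the count of calls says little of these genes. The median absolute log2 difference was 1.33 over the 25 and 0.53 over all genes, a description only, since ITGA4, ITGB2, LAMA4 and ITGAD entered the test on their level in 1 line and had to differ. More than 2-fold higher in HCC-LM3 were 7 of the 25, where 14.9% of all genes were, and 6 were more than 2-fold lower, where 12.2% of all genes were. ITGA4, ITGB2 and LAMA4 were among the 7 and ITGAD among the 6, so these counts are a description too.

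Of the 9 laminin chains tested, LAMB2 differed most, with a log2 difference of HCC-LM3 over Huh-7 of 4.41 ± 0.06 (SE, edgeR adjusted p = 5.45e-14), a fold of 21.3. The SE here and below was derived from the edgeR test statistic. LAMC3 was at −2.70 ± 0.07 (edgeR adjusted p = 9.57e-12) and LAMB1 at −1.68 ± 0.05 (edgeR adjusted p = 2.54e-11). LAMA5, LAMA3, LAMA1 and LAMB3 were also lower in HCC-LM3, at −0.83, −0.84, −0.55 and −0.21. LAMA4 and LAMC1 were higher, at 3.91 and 0.59. LAMA2, with 53 and 49 counts in HCC-LM3 against 2 and 0 in Huh-7, was too low over the 4 libraries to enter the test. Of the integrins, ITGB4 was at −3.88 ± 0.15 (edgeR adjusted p = 1.27e-05), 14.8 times higher in Huh-7. ITGA2 and ITGA6 were lower in HCC-LM3 too, at −2.44 ± 0.09 and −1.83 ± 0.06. ITGA1 was higher at 1.51 ± 0.06, ITGAV at 1.00 ± 0.06, ITGB8 at 0.62, ITGB1 at 0.39, ITGA3 at 0.29 and ITGB5 at 0.24. The alpha6 beta4 chains were thus both higher in Huh-7 cells, and the alphaV beta5, alphaV beta8 and alpha1 beta1 chains all higher in HCC-LM3 cells. ITGA4, the subunit of receptors for VCAM1 and fibronectin, had 70 and 107 counts in HCC-LM3 and 0 in both Huh-7 libraries, which makes it at least 56.5-fold higher over the pair of libraries, taking 3 counts as the floor. ITGAD, a leukocyte subunit, was at −2.85 on only 18 and 19 counts in HCC-LM3 against 89 and 174 in Huh-7. ITGA7 was at 1.55. It shares exon sequence with METTL7B and BLOC1S1 on the opposite strand, whose counts reached 392 and 1211. ITGB7 likewise shares exon sequence with ZNF740, whose counts reached 3109. Whether counting used strand is not given in the sources used here.

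Of the 25 genes, 24 had the same direction in the sh-NC pair and in the sh-WDR4-2 pair of libraries. The exception was ITGA2B, the platelet subunit, at −0.17 and 0.08. The share of all genes with the same direction was not counted, so the 24 say little of these genes. ITGA5 was at −2.28 in the sh-NC pair and −1.50 in the sh-WDR4-2 pair, and did not pass in edgeR with the hairpin term (−1.89 ± 0.35, adjusted p = 0.0886), although every Huh-7 level was above every HCC-LM3 level. It passed with DESeq2 and without the hairpin term. ITGAE, the subunit of an E-cadherin receptor, and ITGA2B were the other genes not called. ITGB2 passed narrowly in edgeR (1.33 ± 0.55, adjusted p = 0.0433) and rested on 1 library, with 80 counts for sh-WDR4-2 in HCC-LM3 cells against 21, 18 and 18 in the others. In the sh-NC pair its log2 difference was 0.00, and DESeq2 gave an adjusted p of 0.258, in a range of 0.000169 to 0.445 over the settings run. Scaling by library totals alone, as FPKM does, moved these differences by a median of 0.17 towards HCC-LM3, which lost the call of LAMB3, gave one to ITGAE and turned the direction of ITGA2B.

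**Figure D4:**
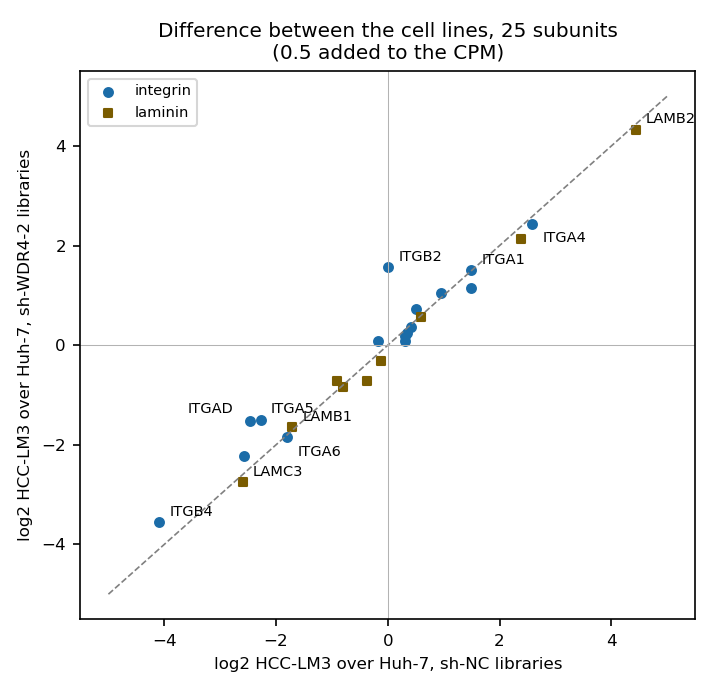
Log2 difference of HCC-LM3 over Huh-7 for 25 subunits (0.5 added to the CPM), in the sh-NC libraries on the horizontal axis and in the sh-WDR4-2 libraries on the vertical axis, with the dashed line of equal values. The points run along the line from ITGB4 at −4.10 and −3.56 to LAMB2 at 4.44 and 4.33, while ITGB2, ITGAD and ITGA5 lie furthest above it.

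The starts of 26 of the 38 genes were found in the RefSeq promoter table (GRCh38.p14), with 33 start sites. The DNA before the starts of the beta chains LAMB1 and LAMB2, whose levels differed in opposite directions between the lines, and of ITGA5, whose level differed between the hairpins of HCC-LM3, is shown as far as it lies outside the GENCODE release 29 gene. The windows are at chr7:108003256-108003411, chr3:49133119-49133300 and chr12:54419461-54419516, all on the minus strand and read 5′ to 3′, and capitals mark the GC box GGGCGG on either strand.
LAMB1: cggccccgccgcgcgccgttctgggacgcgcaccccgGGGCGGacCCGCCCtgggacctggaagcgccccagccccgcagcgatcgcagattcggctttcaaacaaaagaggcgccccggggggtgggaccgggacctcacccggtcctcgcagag
LAMB2: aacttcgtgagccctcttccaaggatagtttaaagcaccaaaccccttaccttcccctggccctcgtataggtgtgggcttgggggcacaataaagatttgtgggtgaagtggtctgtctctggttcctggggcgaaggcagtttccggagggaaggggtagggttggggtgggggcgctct
ITGA5: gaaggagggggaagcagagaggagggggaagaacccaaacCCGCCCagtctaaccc
The shown bases were 75.0% G or C with 21 CpG pairs in LAMB1 and 56.6% with 5 in LAMB2. In the whole 250 bases before the RefSeq start, a GC box stood at 4 places in LAMB1, 1 in LAMB2 and 1 in ITGA5. It was found before 17 of the 33 starts (51.5%), where 42.6% of all 35116 promoters of that length held it. The core ACGTG, which hypoxia-inducible factors bind, was found before 3 (9.09%, all promoters 18.5%), and CCAAT before 5 (15.2%, all promoters 32.0%). Both strands were searched. These matches describe letters and not binding.

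Between hairpins, the 26 genes tested in HCC-LM3 cells had a median log2 fold change of sh-WDR4-2 over sh-NC of −0.03, beside 0.00 over all 12697 genes of that line, and 14 of them lay within 1.1-fold. The 24 tested in Huh-7 cells also had a median of −0.03, beside 0.00 over 11967 genes, and 17 lay within 1.1-fold. The share of all genes within 1.1-fold was not counted. The median absolute log2 fold change was 0.105 beside 0.0972 over all genes in HCC-LM3, and 0.0749 beside 0.0680 in Huh-7. In HCC-LM3, 1 of 26 was more than 2-fold higher, where 0.221% of all genes were, and 0 were more than 2-fold lower, where 0.0473% of all genes were. The 1 gene, ITGB2, reached a mean of 1 CPM only through its sh-WDR4-2 library, at 2.53 CPM against 0.488 with sh-NC. It thus had to be higher once kept, and this count is a description only. In Huh-7, 0 of 24 were more than 2-fold higher or lower, where 0.0669% and 0.0418% of all genes were. With 1 library per group no p-value is given, and the 95% intervals of each ratio (exact binomial) cover counting error only. Such an interval lay above 0 for 4 of the 26 genes in HCC-LM3 and below 0 for 7, beside 20.4% and 21.8% of all genes. In Huh-7 it lay above 0 for 5 of 24 and below 0 for 8, beside 15.6% and 14.8% of all genes. Whether an interval leaves out 0 depends on the counts as well as on the change. LAMA5, with 38296 and 42025 counts in Huh-7, did so at only −0.03. Members and all genes were not matched for counts, so these shares are a description only.

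The gene past 2-fold was ITGB2, the common beta subunit of leukocyte integrins, (chr21:44885953-44931989), which gave 80 counts with sh-WDR4-2 and 21 with sh-NC in HCC-LM3 cells. Its log2 fold change was 1.62, the sixth largest of 12697 genes, and without the added 0.5 the ratio was 5.18 (log2 interval 1.67 to 3.14). In Huh-7 cells ITGB2 had 18 counts in each library, a log2 fold change of 0.05. The level was at most 0.913 FPKM in any library, and no alpha partner of ITGB2 reached 1 CPM in HCC-LM3. PTPRC, which marks leukocytes, was at 0 in every library. ITGB2 shares exon sequence with its antisense gene ITGB2-AS1, whose part in the counts was not tested.

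ITGA5 was the well-expressed integrin that differed most between the HCC-LM3 libraries. The gene (chr12:54395261-54419460) gave 2925 counts with sh-WDR4-2 and 2365 with sh-NC, whose library was deeper. Its log2 fold change was 0.75, with an interval of 0.67 to 0.83, and ranked 79 of 12697 genes. In Huh-7 cells, with 9013 and 9939 counts, it was at −0.04 (−0.08 to 0.00). The share of ITGA5 among the alpha subunit FPKM was 13.5% with sh-WDR4-2 and 8.05% with sh-NC in HCC-LM3, and 33.1% and 32.6% in Huh-7. ITGB1, its only known beta partner, was at 0.02 and 0.06 in the 2 lines. FN1, its ligand fibronectin, had 746 and 849 counts in HCC-LM3, at 0.25 (0.11 to 0.40), and 53 and 42 in Huh-7, at 0.32 (−0.17 to 1.06). CA9, a gene known to rise in low oxygen, was at 1.78 in HCC-LM3 and 0.06 in Huh-7, and lane numbers differed between the HCC-LM3 libraries, and the part of either in the ITGA5 difference was not tested.

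The other HCC-LM3 genes with an interval above 0 were ITGB4, at 0.45 (0.28 to 0.66) on 456 and 447 counts, and ITGA2, at 0.18 (0.03 to 0.35). The partner of ITGB4, ITGA6, was at −0.09 (−0.18 to 0.00). Below 0 were LAMA1, at −0.30 (−0.35 to −0.24) on 4586 and 7668 counts, ITGAE at −0.24 (−0.41 to −0.09), ITGA3 at −0.20 (−0.24 to −0.16), LAMB3 at −0.12, ITGB5 at −0.09, and LAMB2 and LAMA5, both at −0.08. Apart from ITGB2 and ITGA5, each differed by less than 1.5-fold. The laminin chains LAMB1 and LAMC1 were at 0.03 and 0.02, and LAMA1 had its log2 fold change at place 485 from the lowest of 12697.

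In Huh-7 cells ITGAD differed most, at −0.75 (−1.25 to −0.49) on 89 and 174 counts, place 20 from the lowest of 11967 genes. LAMA3 was at −0.25 (−0.37 to −0.14), ITGB8 at −0.21 (−0.34 to −0.08), ITGA2 at −0.16 (−0.23 to −0.09), ITGAV at −0.10, ITGA3 and ITGB4 both at −0.08, and LAMA5 at −0.03. The intervals above 0 were those of LAMC3 at 0.13 (0.07 to 0.19), LAMB3 at 0.08, ITGB1 at 0.06, LAMA1 at 0.06 and LAMC1 at 0.06. The alphaV beta8 chains were thus both lower with sh-WDR4-2 in this line, at −0.10 and −0.21 on the log2 scale, whereas in HCC-LM3 both were at 0.01. ITGA3 and LAMA5 were the members whose intervals lay below 0 in both lines. The share of all genes with intervals below 0 in both lines was not counted, so this overlap cannot be called unusual.

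**Figure D5:**
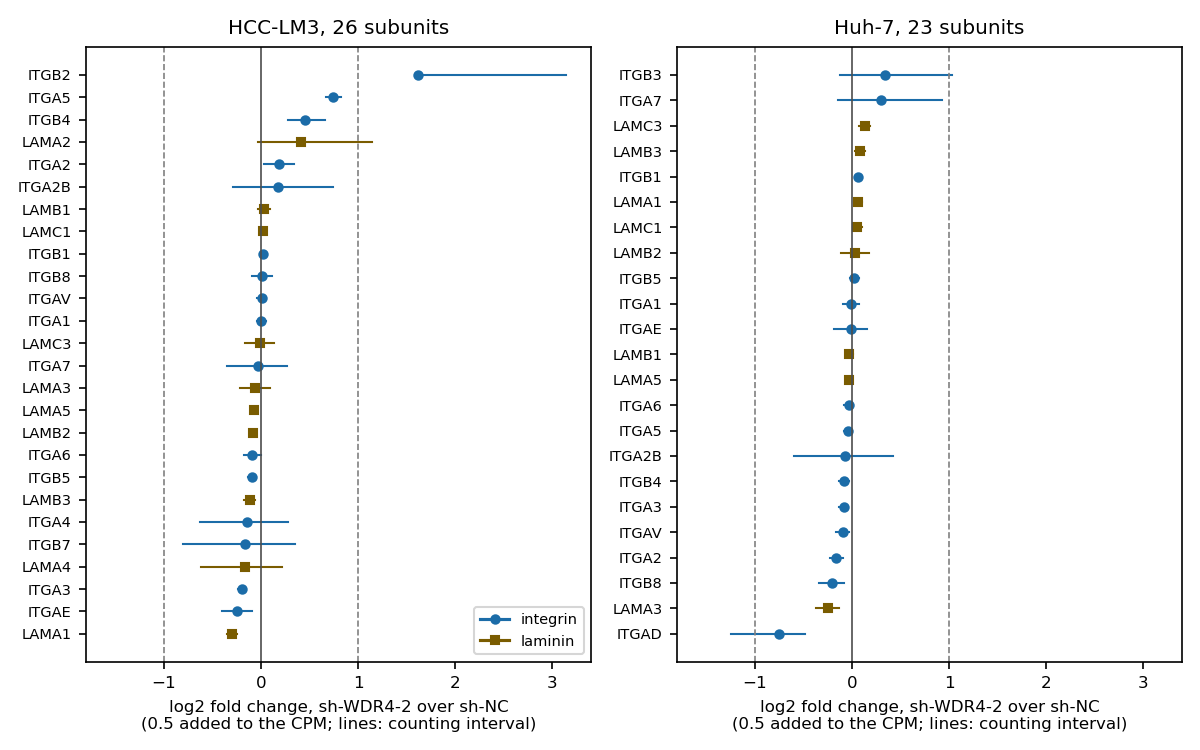
Log2 fold change of sh-WDR4-2 over sh-NC for subunits of at least 1 CPM, with 26 genes in HCC-LM3 on the left and 23 of the 24 in Huh-7 on the right (points with 0.5 added to the CPM, lines the 95% counting interval of the ratio without it, dashed lines 2-fold). ITGB2 at 1.62 is past 2-fold in HCC-LM3, ITGA5 follows at 0.75, and ITGAD is lowest in Huh-7 at −0.75.

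An effect of the hairpin shared by both lines was tested with edgeR on all 4 libraries, with the cell line as a block. Of 25 integrin and laminin genes, 0 passed an adjusted p of 0.05, and 0.00787% of all genes did, which is 1 of 12712. The lowest edgeR adjusted p among the 25 was 0.964. Without adjustment, 1 was higher and 1 lower at a p under 0.05 in edgeR, ITGB2 (log2 1.48) and ITGA3 (log2 −0.14), and DESeq2 had 0 higher and 1 lower. For ITGB2 the direction in Huh-7 rested on 18 counts in each library, and the gene entered the test through its HCC-LM3 sh-WDR4-2 library. The fit had 1 residual degree of freedom.

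Of the lists of genes that work with these receptors and chains, 1 gene in all passed 2-fold between hairpins, beside the shares of all genes given above for each line (0.221% higher and 0.0473% lower in HCC-LM3, 0.0669% and 0.0418% in Huh-7). Of the adhesion complex, 0 of 26 genes tested in HCC-LM3 and 0 of 25 in Huh-7 passed 2-fold, with medians of −0.06 and 0.01. FYN, a Src-family kinase, was at 0.42 in HCC-LM3 and −0.03 in Huh-7, and RAP1A, a small GTPase that activates integrins, at 0.12 and 0.10. APBB1IP, which brings talin to RAP1, was at −0.39 in HCC-LM3 with 0 counts in Huh-7, and SHARPIN, an inhibitor of integrin activation, at −0.13 and −0.24. The talin gene TLN1 was at −0.02 and −0.04, and the kindlin gene FERMT2 at 0.04 and 0.00. Of 13 other laminin receptors and tetraspanins, 0 passed 2-fold in either line. The syndecan genes SDC1 and SDC2 were at −0.27 and −0.05 in HCC-LM3 and at −0.09 and 0.22 in Huh-7, and RPSA, which encodes a ribosomal protein also described as a laminin receptor, at 0.13 and 0.05. DAG1, the dystroglycan gene, was at −0.12 and 0.07. Of the basement membrane partners, 0 of 10 and 0 of 8 passed, with NID2, a nidogen, at 0.25 and 0.00, NTN4, a netrin that binds laminin, at −0.20 and −0.09, and AGRN, the agrin gene, at −0.15 and −0.05. NID1, a laminin linker, had 1455 and 1701 counts in HCC-LM3 and 0 in Huh-7, and the collagen IV genes COL4A1 and COL4A2 were lower in HCC-LM3 than in Huh-7, at −3.07 and −2.34 in edgeR. Of 6 hemidesmosome and keratin genes, PLEC, DST and the tetraspanin gene CD151 were tested in each line and 0 passed, while KRT5, KRT14 and COL17A1 had at most 18 counts.

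Of the integrin ligands other than laminin, 0 of 11 passed 2-fold in HCC-LM3 and 1 of 11 in Huh-7. This was CDH1, with 26 counts for sh-WDR4-2 and 86 for sh-NC (−1.17, interval −2.31 to −0.97). CDH1 reached its mean of 1.54 CPM in Huh-7 only through the sh-NC library, the sh-WDR4-2 library being under 1 CPM. It thus had to be lower once kept, and this count is a description only. CDH1 encodes E-cadherin, the ligand of alphaE beta7, and its count in HCC-LM3 was 22 and 32. CYR61 and CTGF, matricellular ligands of alphaV integrins, were at 0.17 and 0.29 in HCC-LM3 and 0.18 and 0.02 in Huh-7. THBS1 and VTN, which encode thrombospondin 1 and vitronectin, were both at −0.31 in HCC-LM3, and at 0.19 and 0.18 in Huh-7. ICAM1, a ligand of ITGB2 integrins, had 6 and 17 counts in HCC-LM3 and 1434 and 1872 in Huh-7, and VCAM1, a ligand of alpha4 integrins, had 0 in all libraries.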

How the data were processed

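The authors deposited 1 table for the series with a count and an FPKM per gene and library. The deposited counts are whole reads per gene, and the deposited FPKM is the count divided by gene length and library total, recomputed from the table. Bowtie 0.12.2, mm8 and mm9 appear, with no role, in the submitters' processing notes. Which aligner, human build and strand setting gave these counts is not given in the sources used here. Coordinates are from GENCODE release 29 (GRCh38). The members and lists were chosen with earlier results of these data known.

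TMM factors scaled the counts to CPM, and 0.5 CPM was added before log2 for each pair of hairpins. A gene was kept when it averaged 1 CPM or more across the compared libraries. edgeR 4.0.16 (robust quasi-likelihood, ~ cell line + hairpin, Benjamini-Hochberg over all genes) gave the line and shared hairpin tests, and DESeq2 1.42.0 an alternative. The SE of an edgeR difference was taken as its absolute log2 value over the square root of the F statistic. It is not reported by edgeR itself and is no separate measure of spread. Both coefficients were checked on simulated data with a spread common to all genes and changes placed in better-expressed genes only. This check does not cover members with low counts. Named were all members of at least 1 CPM in a line, and of each other list up to 4 genes by mean log2 fold change plus any past 2-fold. Genes outside this rule, among them TLN1, FERMT2, DAG1, COL4A1, COL4A2, ICAM1, VCAM1, CA9 and the markers, were named for their role with their values known. Row order followed a Python 2 dictionary with 32768 places except for 233 of 19225 symbols, 0 of them members. Some items are not reported here. Intervals cover counting error only, since no molecular identifiers are described. Libraries were not described as separate cultures, so p-values may measure technical spread.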

Additional observations from a re-analysis of the deposited data

Results flagged for a closer look

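4 genes had counting intervals on opposite sides of 0 in the 2 cell lines for sh-WDR4-2 over sh-NC. Of all genes, 20.4% had intervals above and 21.8% below 0 in HCC-LM3, and 15.6% and 14.8% in Huh-7. The share of all genes with intervals on opposite sides was not counted, so the 4 cannot be called unusual. The difference between the lines was not tested, since each line has 1 library per hairpin. The log2 fold change of ITGB4, the partner of alpha6, was 0.45 in HCC-LM3 and −0.0827 in Huh-7, and that of ITGA2, a collagen receptor subunit, was 0.18 and −0.16. The laminin chains went the other way, with LAMA1 at −0.30 in HCC-LM3 against 0.0603 in Huh-7, and LAMB3 at −0.12 against 0.0794. All these changes were under 1.5-fold.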

How the results depend on the processing

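In HCC-LM3 the count past 2-fold was 0 when only genes of a mean of 10 CPM were kept, since ITGB2 then left the test, and 2 at 1.5-fold, where ITGA5 joined. In Huh-7 the count was 1 at 1.5-fold, ITGAD. With 0.1 or 1 CPM added, ITGB2 was at 2.16 and 1.25. Of the 22 calls between lines, 13 also had an absolute log2 difference over 1, among them ITGA4, ITGB2, LAMA4 and ITGAD, which had to differ. Leaving out 1 library in turn gave 21 to 23 calls, in fits with the cell line only that assume the lone library varies like the other line. With all 4 libraries and no hairpin term, as with DESeq2, ITGB2 already lost its call and ITGA5 gained one. Beside that fit, ITGB2 was again not called without either Huh-7 library and left the test without the sh-WDR4-2 one of HCC-LM3, LAMB3 lost its call without the Huh-7 sh-WDR4-2 library, ITGA5 was called without either HCC-LM3 library but not without either Huh-7 library, and ITGAE was called without the HCC-LM3 sh-WDR4-2 library. Without a filter 30 genes were called. The fit with no replicate block for the cell line gave 0 calls for the shared hairpin effect, as did the other alternatives. The HCC-LM3 median turned from −0.03 to 0.01 without a filter, near 0 in both. At a mean of 1 FPKM in place of 1 CPM, 20 genes were expressed in HCC-LM3 and 19 in Huh-7. Low counts limit ITGB2, ITGAD, ITGA4, ITGB3 and LAMA2, and the absence of replicates limits all hairpin differences.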
